A study of Mus musculus with 9 samples.

Results

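This account follows 10 mouse genes, Cdkn1a, Cdkn2a, Cdkn2b, Mdm2, Bax, Bbc3, Ccng1, Sesn1, Sesn2 and Trp53inp1, which encode inhibitors of the cell division cycle and products of genes that the transcription factor p53 activates. They were taken by name among the 56481 gene symbols of the count table, and all 10 passed the filter on low counts in each of the 3 comparisons. RNA was sequenced in 9 libraries, 3 from each of 3 kinds of cultured mouse cell. The pNCC group was primary neural crest cells taken from embryos at E13.5 and grown in medium with 10% fetal bovine serum. The iCEC group, labelled induced corneal endothelial cells, was made from neural crest cells with 5 µM SB431542, an inhibitor of the TGF-beta type I receptor, in medium with 5% KSR, a serum replacement. That medium was renewed every 2 days, clusters of cells were seen by day 4 and the cells were characterised at day 12. The pCEC group was cells labelled primary corneal endothelial cells, grown in medium with 10% fetal bovine serum. Strain, genotype and the age of the animals behind pCEC are not given in the sources used here, and the pNCC group received no SB431542. The pCEC 2 and pCEC 3 libraries were labelled total RNA and the other 7 libraries polyA RNA, so that RNA type varies within pCEC. The labels do not say whether the 3 libraries of a group came from separate animals or cultures. Each p-value below therefore reflects the scatter of these libraries, which may be technical.

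The transcription factor p53 is held at a low level in unstressed cells by MDM2, a ubiquitin ligase whose own gene p53 activates, which closes a negative feedback loop. When p53 is stabilised it raises genes that stop the cell cycle, such as Cdkn1a, and genes that release the mitochondrial route to apoptosis, such as Bax and Bbc3. Cdkn2a encodes the INK4A inhibitor of the kinases CDK4 and CDK6 and, from another first exon and reading frame, ARF, an inhibitor of MDM2. Cdkn2a and its neighbour Cdkn2b are kept silent by Polycomb complexes in many embryonic cells and commonly rise in cells kept in culture. Corneal endothelium is a layer that is known to divide little in the adult.

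The smallest library, pCEC 3, held 27389292 counts and the largest, iCEC 1, held 47967113. The mean distance of a library to the others of its group, on a log2 scale over all genes past the filter, was 0.63 to 0.73 in pNCC, 0.84 to 0.93 in pCEC and 1.45 to 1.76 in iCEC. The highest of these values belonged to iCEC 3, so that the induced group had the widest spread. Summed over 10 markers of surface epithelium, the level was 81.9 to 134 CPM in pNCC (each count scaled by its library total), 13729 to 21885 in iCEC and 35511 to 47753 in pCEC. All 10 of these markers reached a mean of 1 CPM in pCEC and 8 of 10 did in iCEC, whereas Krt12, the keratin of the corneal surface epithelium, was at 0 in pNCC. Of 12 corneal endothelium markers, 11 reached a mean of 1 CPM in pCEC, 8 in iCEC and 11 in pNCC, with sums of 1729 to 2066, 2421 to 2811 and 969 to 1141 CPM. Summed over 9 markers of keratocytes and fibroblasts, the level was 17577 to 31647 CPM in pNCC, 149 to 198 in iCEC, where Kera was at 0, and 22729 to 32414 in pCEC. Of 9 neural crest markers, whose sums were 374 to 601 CPM in pNCC, 278 to 808 in iCEC and 236 to 347 in pCEC, Foxd3 was at 0 in iCEC. The sum of 8 skeletal muscle markers was 84.0 to 105 CPM in pNCC and at most 3.57 CPM elsewhere, with Myod1 at 0 in iCEC and pCEC. Leukocyte markers summed to between 18.3 and 53.5 CPM in every library. Of these, Ptprc, Lyz2, C1qa and Cd3e were at 0 in iCEC, Aif1 and Cd3e were at 0 in pNCC, and none was at 0 in pCEC. The surface epithelium and corneal endothelium sums did not overlap between any groups, the keratocyte and fibroblast sums set iCEC apart and the muscle sums set pNCC apart, while the leukocyte sums overlapped between all groups and the neural crest sums of iCEC overlapped both others. The part of these cell types in the values of the 10 genes was not tested.

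Against neural crest cells, the induced cells showed 1 change among the 10 genes that passed the test, a rise of Sesn1, while the pCEC libraries showed changes in 9. Of those 9, 7 were lower in pCEC, namely Cdkn2a, Mdm2, Bax, Bbc3, Ccng1, Sesn2 and Trp53inp1, and 2 were higher, namely Cdkn2b and Sesn1. Between induced and pCEC cells 8 genes differed, with Cdkn1a, Cdkn2a, Bax, Bbc3, Ccng1, Sesn2 and Trp53inp1 higher in iCEC and Sesn1 lower. In these bulk libraries fewer cells of a type and less RNA per cell cannot be told apart. A change was called where the adjusted p of edgeR's quasi-likelihood test, corrected over all genes tested by the Benjamini-Hochberg method, was under 0.05. With the 1 pCEC library labelled polyA RNA alone, pCEC has no spread of its own, so calls of that fit are not used here. In that fit the median log2 fold change of the 10 genes for pCEC over pNCC was -1.92, where that of all genes was -0.01. Its calls between iCEC and pCEC are given in the closing section. Both comparisons against pNCC use the same 3 pNCC libraries.

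Across 16293 genes tested between iCEC and pNCC, 16.1% were called higher and 15.1% lower in iCEC, beside 1 and 0 of the 10 genes. An unadjusted p under 0.05 in edgeR's test was found for 6970 of the 16293 genes and 3 of the 10. Across 16608 genes between pCEC and pNCC, 30.3% were called higher and 32.2% lower in pCEC, beside 2 and 7 of the 10 genes. For iCEC and pCEC, with 16278 genes, 10.5% were called higher and 9.92% lower in iCEC, beside 7 and 1 of the 10. The median log2 fold change of the 10 genes was 0.78 for iCEC over pNCC, -2.06 for pCEC over pNCC and 2.35 for iCEC over pCEC, where the medians of all genes were 0.05, -0.01 and 0.04. The CPM of the groups did not overlap for 2, 9 and 9 of the 10 genes, against 51.0%, 70.7% and 43.9% of all genes tested. Per kilobase of exon, the mean level in pNCC ran from 4.50 CPM for Sesn1 to 134 CPM for Ccng1. In iCEC the range per kilobase was 9.64 CPM for Sesn1 to 169 CPM for Ccng1, and in pCEC 0.187 CPM for Cdkn2a to 56.9 CPM for Cdkn1a.

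**Figure D1:**
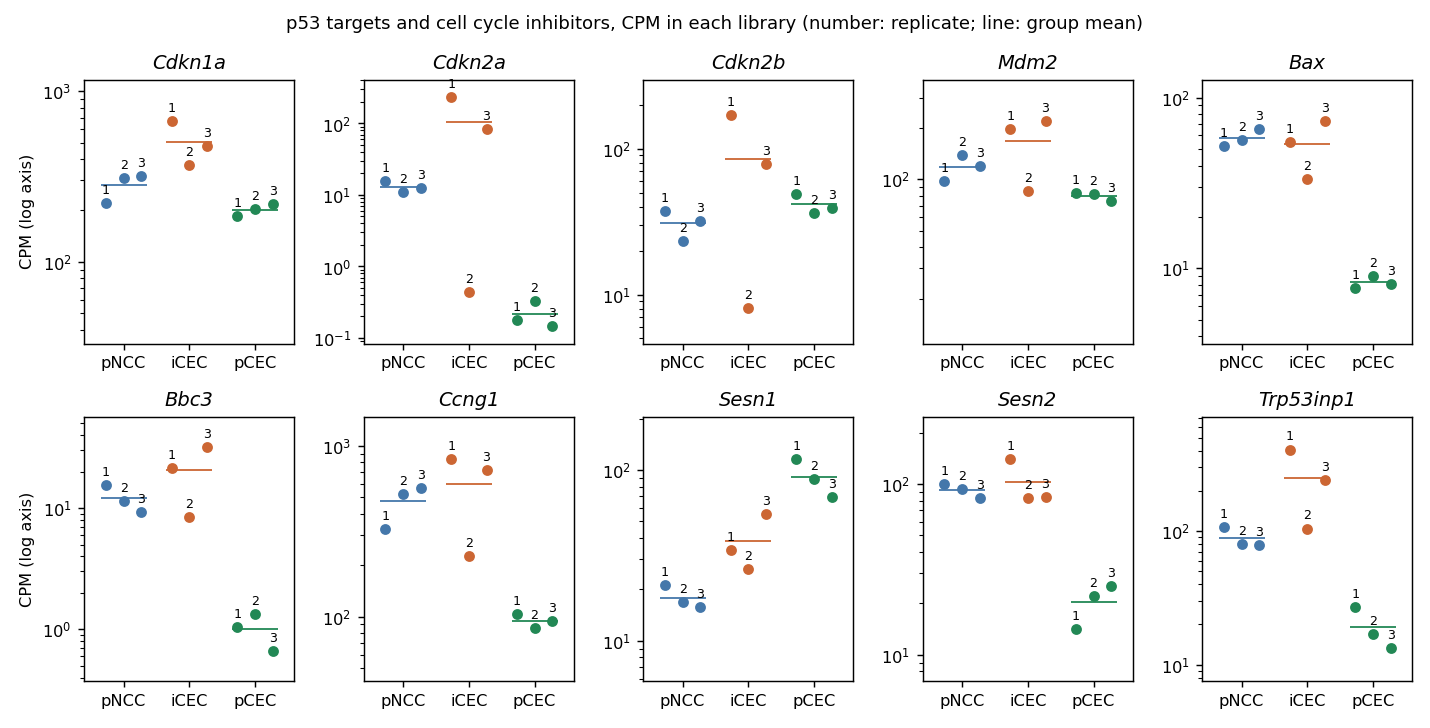
CPM of each of the 10 genes on log axes, 1 panel per gene, with 1 numbered point per library and a line at the mean of each group of 3. The point of iCEC 2 is the lowest of the iCEC points in all 10 panels. The pCEC points of Cdkn1a, Cdkn2a, Mdm2, Bax, Bbc3, Ccng1, Sesn2 and Trp53inp1 lie below every point of the other groups, for Cdkn1a, Cdkn2a and Mdm2 by a narrow margin.

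Among the 3 induced libraries, iCEC 2 had the lowest CPM for 10 of the 10 genes, compared with 40.0% of all genes tested. After scaling by TMM factors it was the lowest for 9 of the 10, with Sesn2 lowest in iCEC 3, compared with 4919 of 16283 genes. With iCEC 2 left out, 6 of the 10 genes were called higher in iCEC than in pNCC, where 13.3% of all genes were. These were Cdkn2a at a log2 fold change of 3.60, Cdkn2b at 1.99, Trp53inp1 at 1.84, Sesn1 at 1.22, Bbc3 at 1.07 and Mdm2 at 0.74. With any 1 of the pNCC libraries left out, 0 of the 10 passed edgeR's test against pNCC, with 1 to 2 at an unadjusted p under 0.05. The calls over all genes went from 5093 to between 2322 and 2698, with 5468 to 5811 at an unadjusted p under 0.05. Relative to the group mean, the SD in iCEC exceeded that in pNCC and in pCEC for all 10 genes, and the number called against pNCC rested on which libraries were kept.

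Of the CDK inhibitors, Cdkn1a (ENSMUSG00000023067.14, mm10 chromosome 17, 29090976 to 29100727, plus strand) encodes p21, which binds cyclin and CDK complexes and halts the cycle before DNA synthesis. In pNCC its level was 221, 311 and 318 CPM, in iCEC 666, 369 and 474 CPM, and in pCEC 186, 203 and 217 CPM. The order of the groups was iCEC, pNCC, pCEC, and no iCEC library overlapped a library of either other group. For iCEC over pCEC the log2 fold change was 1.19 ± 0.27 (SE; adjusted p = 0.0268). Against pNCC it was 0.83 ± 0.28 in iCEC (adjusted p = 0.0711) and -0.36 ± 0.18 in pCEC (adjusted p = 0.132), neither past the threshold. The call between iCEC and pCEC was lost without iCEC 1 (log2 0.91) and without each pCEC library (log2 1.08 to 1.27). The call against pNCC was gained without iCEC 3, where the log2 fold change was 0.93 (adjusted p = 0.0479), and with all 9 libraries in one fit (0.80, adjusted p = 0.0419).

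Cdkn1a and Ccng1 are shown with promoter sequence because they were the genes of this set in whose promoter windows a p53 consensus element was found. The windows are RefSeq's, in GRCm38.p6, from 250 bases before to 50 bases after a transcript start, and 14 windows covered 9 of the 10 genes, with none for Trp53inp1. The element searched was the p53 consensus of 2 adjacent 10-base half-sites with a spacer of 0, at most 1 mismatch and the C and G of each core fixed, which reads alike on both strands. Capitals mark the element, and both sequences run 5′ to 3′ on the strand of the gene. The Cdkn1a window is chr17:29090729-29091028 on the plus strand, with the element at 29090928 to 29090947, from 51 to 32 bases before that start and 2841 bases from the other RefSeq start of the gene. The Ccng1 window is chr11:40755237-40755536 on the minus strand, with the element at 40755462 to 40755481, from 195 to 176 bases before the start.
Cdkn1a: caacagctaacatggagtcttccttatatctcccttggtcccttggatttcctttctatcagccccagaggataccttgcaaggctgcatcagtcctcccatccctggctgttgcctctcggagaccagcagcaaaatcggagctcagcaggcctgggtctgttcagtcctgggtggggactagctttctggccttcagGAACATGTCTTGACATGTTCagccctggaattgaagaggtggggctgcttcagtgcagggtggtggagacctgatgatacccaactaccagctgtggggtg
Ccng1: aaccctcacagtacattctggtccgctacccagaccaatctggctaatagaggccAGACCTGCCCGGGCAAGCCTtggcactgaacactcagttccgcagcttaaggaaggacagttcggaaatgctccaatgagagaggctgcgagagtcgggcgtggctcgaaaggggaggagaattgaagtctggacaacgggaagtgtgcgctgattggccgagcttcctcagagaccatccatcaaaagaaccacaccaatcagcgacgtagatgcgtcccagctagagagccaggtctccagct
Of all 32851 windows of this length in the RefSeq table, 22 (0.0670%) held the element. A match is one of letters within these windows only. Of the pair, Ccng1 was called lower in pCEC than in pNCC and Cdkn1a was not.

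Cdkn2a (ENSMUSG00000044303.6, mm10 chromosome 4, 89274471 to 89294653, minus strand) had the widest range of the 10 genes. Its level was 15.4, 11.1 and 12.6 CPM in pNCC, 234, 0.436 and 84.5 CPM in iCEC, and 0.180, 0.333 and 0.146 CPM in pCEC. The induced libraries 1 and 3 were thus above every pNCC library, while iCEC 2, with 16 counts, was below them and near pCEC, where the counts were 6, 12 and 4. Between pCEC and pNCC the log2 fold change was -5.71 ± 0.36 (SE; adjusted p = 1.49e-05), a 52.5-fold lower level. Between iCEC and pNCC it was 3.02 ± 1.58 (adjusted p = 0.199), and it was 3.60 without iCEC 2 (adjusted p = 0.0117) and 1.52 without iCEC 1 (adjusted p = 0.513). For iCEC over pCEC it was 8.74 ± 2.11 (adjusted p = 0.0327), a call that was lost without iCEC 1 (7.32), without each pCEC library (8.56 to 9.19) and without the filter on low counts (8.78, adjusted p = 0.141). RefSeq gives Cdkn2a starts at 89294619 and 89282192, 12.4 kb apart, and the counts by symbol do not separate INK4A from ARF transcripts.

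Cdkn2b (ENSMUSG00000073802.5, mm10 chromosome 4, 89306299 to 89311039, minus strand) encodes INK4B, a CDK4 and CDK6 inhibitor that TGF-beta signalling is known to induce in epithelial cells. It stood at 37.5, 23.3 and 31.9 CPM in pNCC, 170, 8.07 and 78.3 CPM in iCEC, and 49.2, 36.5 and 39.0 CPM in pCEC. As for Cdkn2a, iCEC 1 and 3 were above all pNCC libraries and iCEC 2 was below them. The log2 fold change was 1.45 ± 0.92 for iCEC over pNCC (adjusted p = 0.278), with 0.33 without iCEC 1 (adjusted p = 0.797) and 1.99 without iCEC 2 (adjusted p = 0.0330), and 0.91 ± 0.88 for iCEC over pCEC (adjusted p = 0.506). It was 0.55 ± 0.20 for pCEC over pNCC (adjusted p = 0.0444), although pCEC 2 was below pNCC 1, and this call was lost in 4 of 6 fits that each left out 1 library, namely pNCC 2 (0.36), pNCC 3 (0.59), pCEC 1 (0.51) or pCEC 3 (0.58). With all 9 libraries in one fit it was 0.57 (adjusted p = 0.581). A long noncoding RNA gene, Gm12610, overlaps Cdkn2b in RefSeq and reached at most 2.71 CPM, and the strand setting of the counting is not given in the sources used here.

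The neighbours of Cdkn2a were examined after its values had been seen. Of 55 RefSeq genes with a row in the table that lie at least in part within 1 Mb of it, 9 had a mean of at least 1 CPM over the 9 libraries. Focad lies only in part within that distance. Mtap, which encodes the enzyme that recycles methylthioadenosine, has its midpoint 125 kb from that of Cdkn2a. It stood at 91.6, 103 and 94.5 CPM in pNCC, 94.3, 3.11 and 61.1 CPM in iCEC, and 29.8, 29.9 and 32.1 CPM in pCEC. In iCEC 2 the level was 4.00% of the mean of iCEC 1 and 3 for Mtap, 0.274% for Cdkn2a and 6.49% for Cdkn2b. Over 13110 genes with a mean of at least 1 CPM in iCEC the median of that ratio was 0.875, and 103 genes (0.786%) were at or below the ratio of Mtap and 37 (0.282%) at or below that of Cdkn2a. Klhl9, 564 kb away, was alike in the 3 induced libraries, at 119, 116 and 121 CPM. Between Klhl9 and Mtap, the lncRNA gene Gm49890 stood at 35.9, 7.77 and 26.8 CPM in the induced libraries, with iCEC 2 at 24.8% of the mean of the others. The lncRNA genes Wincr1 and Gm12602 stood at 14.6 and 23.3 CPM in iCEC 1, 0.436 and 0.981 CPM in iCEC 2 and 0.655 and 3.75 CPM in iCEC 3, so that iCEC 2 was at 5.72% and 7.26% of that mean and iCEC 3 was low as well. The genes from Gm49890 to Cdkn2b, 6 of the 9, and Focad (29.8, 13.9 and 18.4 CPM) were lowest in iCEC 2, as was Klhl9 by a narrow margin. Hacd4 (39.0, 32.7 and 6.22 CPM) was lowest in iCEC 3 instead. The iCEC 2 library held the lowest value of the 3 libraries for 40.0% of all genes tested, and the cause was not tested. For Mtap the difference between iCEC and pNCC was -0.90 ± 0.96 on the log2 scale (adjusted p = 0.519), and that between pCEC and pNCC -1.53 ± 0.11 (adjusted p = 3.02e-05).

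**Figure D2:**
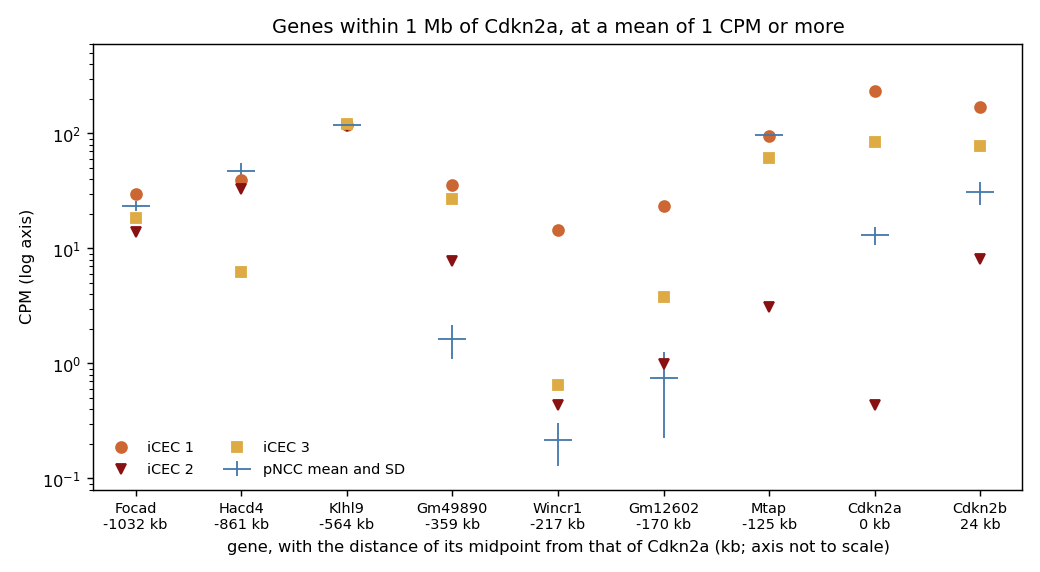
CPM (log axis) of the 9 genes at least in part within 1 Mb of Cdkn2a with a mean of at least 1 CPM, in order along chromosome 4, with 1 symbol per iCEC library and a cross for the pNCC mean with its SD (n = 3). The iCEC 2 symbols for Mtap, Cdkn2a and Cdkn2b lie at 3.11, 0.436 and 8.07 CPM, below the other iCEC libraries and the pNCC mean, and the 3 symbols for Klhl9 coincide.

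Among the feedback regulators, Mdm2 (ENSMUSG00000020184.15, mm10 chromosome 10, 117688875 to 117710758, minus strand) encodes the ligase that marks p53 for breakdown. Its level was 97.3, 138 and 119 CPM in pNCC, 196, 85.2 and 218 CPM in iCEC, and 82.8, 81.7 and 74.2 CPM in pCEC. It fell in pCEC against pNCC by 0.44 ± 0.14 on the log2 scale (adjusted p = 0.0308). That call was lost in 5 of the 6 fits that left out 1 library, all but the one without pNCC 1, with log2 values of -0.44 to -0.35, and under the DESeq2 Wald test (-0.43, adjusted p = 0.0540) and with all 9 libraries in one fit (-0.42, adjusted p = 0.254). The iCEC values lay on either side of pNCC, and neither the 0.47 ± 0.32 against pNCC (adjusted p = 0.320) nor the 0.92 ± 0.32 against pCEC (adjusted p = 0.0893) passed. Without iCEC 2 both did, at 0.74 (adjusted p = 0.0472) and 1.24 (adjusted p = 0.0113).

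Ccng1 (ENSMUSG00000020326.7, mm10 chromosome 11, 40748552 to 40755311, minus strand) encodes cyclin G1, a p53 target that recruits phosphatase 2A to MDM2. It stood at 326, 522 and 568 CPM in pNCC, 841, 225 and 719 CPM in iCEC, and 104, 86.1 and 94.3 CPM in pCEC. All pCEC libraries were below all others, and the iCEC libraries spanned the pNCC range on both sides. The log2 fold change was -2.19 ± 0.23 for pCEC over pNCC (adjusted p = 0.000173), 2.51 ± 0.47 for iCEC over pCEC (adjusted p = 0.0142) and 0.30 ± 0.48 for iCEC over pNCC (adjusted p = 0.672). The call between iCEC and pCEC was lost without each pCEC library, at 2.45 to 2.54 (adjusted p = 0.0660 to 0.0723).

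Trp53inp1 (ENSMUSG00000028211.11, mm10 chromosome 4, 11156431 to 11174379, plus strand) encodes a stress protein that acts with p53 and in autophagy. Its level was 107, 79.8 and 79.1 CPM in pNCC, 409, 105 and 242 CPM in iCEC, and 27.1, 16.9 and 13.2 CPM in pCEC. The pCEC libraries were again the lowest, and iCEC 2 lay within the pNCC range. It was 4.28-fold lower in pCEC than in pNCC (log2 -2.10 ± 0.26; adjusted p = 0.000351) and 12.2-fold higher in iCEC than in pCEC (log2 3.61 ± 0.54; adjusted p = 0.00791). The 1.50 ± 0.47 between iCEC and pNCC missed the threshold (adjusted p = 0.0546), passing without iCEC 2 (1.84, adjusted p = 0.0195), under the DESeq2 Wald test (1.45, adjusted p = 0.0251) and with all 9 libraries in one fit (1.47, adjusted p = 0.0305). Without iCEC 1 it was 0.89 (adjusted p = 0.0935), and without each pNCC library 1.40 to 1.63 (adjusted p = 0.126 to 0.179).

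**Figure D3:**
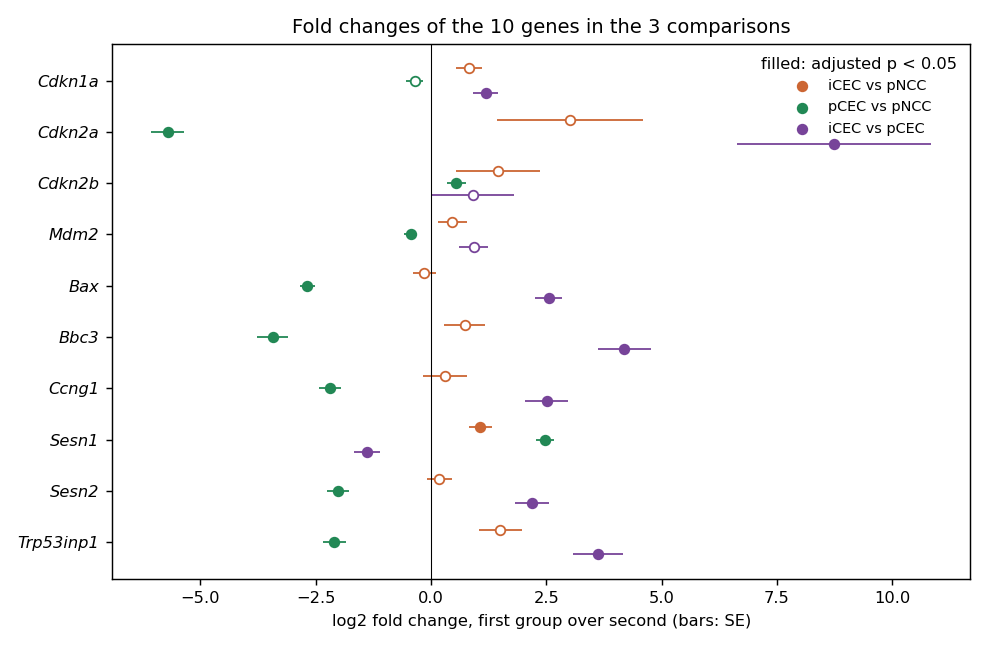
Log2 fold change of each of the 10 genes in the 3 comparisons, first group over second, with bars for the SE and filled symbols where the adjusted p of edgeR's quasi-likelihood test was under 0.05 (3 libraries per group). One symbol of the iCEC over pNCC comparison is filled, Sesn1 at 1.07, beside 9 for pCEC over pNCC and 8 for iCEC over pCEC.

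Both apoptosis genes of the set were low in pCEC. Bax (ENSMUSG00000003873.11, mm10 chromosome 7, 45461697 to 45466898, minus strand) encodes a pore-forming protein of the mitochondrial outer membrane. It stood at 51.9, 56.4 and 65.5 CPM in pNCC, 55.2, 33.1 and 72.6 CPM in iCEC, and 7.69, 9.01 and 8.11 CPM in pCEC. The pNCC and iCEC values overlapped and differed by -0.14 ± 0.25 on the log2 scale (adjusted p = 0.702). The level in pCEC was 6.41-fold lower than in pNCC (log2 -2.68 ± 0.16; adjusted p = 1.14e-05) and 5.86-fold lower than in iCEC (iCEC over pCEC log2 2.55 ± 0.29; adjusted p = 0.00394). Bbc3 (ENSMUSG00000002083.13, mm10 chromosome 7, 16308393 to 16318205, plus strand) encodes PUMA, a BH3-only protein that frees BAX to act. Its level was 15.5, 11.5 and 9.22 CPM in pNCC, 21.6, 8.39 and 32.1 CPM in iCEC, and 1.05, 1.33 and 0.657 CPM in pCEC, the pCEC level resting on 101 counts over 3 libraries. It was 10.8-fold lower in pCEC than in pNCC (log2 -3.44 ± 0.33; adjusted p = 0.000108) and 18.3-fold higher in iCEC than in pCEC (log2 4.20 ± 0.57; adjusted p = 0.00606). Between iCEC and pNCC the log2 fold change was 0.73 ± 0.44 (adjusted p = 0.261), and it passed without iCEC 2 at 1.07 (adjusted p = 0.0458). The calls of Bax and Bbc3 that involve pCEC held in each fit that left out 1 library.

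The 2 sestrins, stress-induced inhibitors of the growth kinase complex mTORC1, differed in opposite directions between pCEC and the other groups. Sesn1 (ENSMUSG00000038332.13, mm10 chromosome 10, 41809935 to 41908424, plus strand) stood at 21.2, 16.8 and 15.7 CPM in pNCC, 34.0, 26.3 and 54.9 CPM in iCEC, and 117, 88.2 and 69.7 CPM in pCEC. The groups were ordered pNCC, iCEC, pCEC with no overlap between neighbours. Sesn1 rose 5.57-fold in pCEC over pNCC (log2 2.48 ± 0.19; adjusted p = 4.02e-05) and 2.10-fold in iCEC over pNCC (log2 1.07 ± 0.25; adjusted p = 0.0209), and iCEC was below pCEC (log2 -1.38 ± 0.28; adjusted p = 0.0182). The call of iCEC over pNCC was lost without each pNCC library, at log2 values of 0.99 to 1.18 (adjusted p = 0.0589 to 0.102). The call of iCEC under pCEC was lost without iCEC 1 (-1.32) and without each pCEC library (-1.52 to -1.23). Sesn2 (ENSMUSG00000028893.8, mm10 chromosome 4, 132492032 to 132510501, minus strand) encodes a leucine sensor that ATF4 also activates. Its level was 99.7, 93.0 and 82.4 CPM in pNCC, 141, 83.2 and 84.0 CPM in iCEC, and 14.1, 22.2 and 25.2 CPM in pCEC. It was 4.05-fold lower in pCEC than in pNCC (log2 -2.02 ± 0.24; adjusted p = 0.000296) and 4.57-fold higher in iCEC than in pCEC (log2 2.19 ± 0.36; adjusted p = 0.0103). Between iCEC and pNCC the difference was 0.18 ± 0.27 (adjusted p = 0.648). Small annotated genes that overlap Bax, Sesn1 and Sesn2 reached at most 0.404 CPM.

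Among 17 genes of the p53 family and its regulators, 7 were called higher in iCEC than in pNCC, and 8 higher and 3 lower (Trp53, Atm and Trp53bp1) in pCEC than in pNCC. The median log2 fold changes were 0.34 and 0.24, beside 0.05 and -0.01 for all genes. For this list and those below, the shares of all genes tested were 16.1% higher and 15.1% lower in iCEC than in pNCC. They were 30.3% higher and 32.2% lower in pCEC than in pNCC, and 10.5% higher and 9.92% lower in iCEC than in pCEC. Trp53, which encodes p53, stood at 143, 175 and 167 CPM in pNCC, 116, 113 and 142 CPM in iCEC, and 67.1, 75.2 and 72.3 CPM in pCEC. The pCEC libraries were the lowest, with a log2 fold change of -1.05 ± 0.13 against pNCC (adjusted p = 0.00039), and iCEC was above pCEC by 0.66 ± 0.16 (adjusted p = 0.0341). The -0.39 ± 0.15 of iCEC over pNCC did not pass (adjusted p = 0.0984). Trp63, which encodes p63, the p53 relative of stratified epithelia, stood at 1.55, 1.76 and 0.914 CPM in pNCC, 251, 275 and 262 CPM in iCEC, and 380, 341 and 337 CPM in pCEC. Its log2 fold change over pNCC was 7.56 ± 0.34 in iCEC (adjusted p = 0.000268) and 8.10 ± 0.26 in pCEC (adjusted p = 1.37e-06), and it is one of the 10 surface epithelium markers whose sums moved alike. Trp73 was at or under 0.124 CPM in pNCC, 13.4, 6.48 and 35.3 CPM in iCEC and 5.33, 5.24 and 3.43 CPM in pCEC, with log2 fold changes over pNCC of 7.41 ± 0.79 (adjusted p = 0.00193) and 5.63 ± 0.43 (adjusted p = 3.56e-05) that rest on 10 counts in pNCC. Mdm4, the partner of MDM2, was higher in iCEC than in pNCC by 0.74 ± 0.20 (adjusted p = 0.0317), with 0.24 ± 0.28 in pCEC (adjusted p = 0.494). Chek2, a kinase that activates p53 after DNA breaks, rose by 0.83 ± 0.18 in iCEC (adjusted p = 0.0185) and 0.46 ± 0.13 in pCEC (adjusted p = 0.015). The pCEC call of Chek2 was lost without pNCC 2 or pCEC 3 (0.43 to 0.45). Usp10, a deubiquitinase of p53, rose by 0.60 ± 0.13 in iCEC (adjusted p = 0.0186) and 1.59 ± 0.13 in pCEC (adjusted p = 4.1e-05). Of the 17 genes, 2 differed between iCEC and pCEC, Trp53 as above and Usp10, which was lower in iCEC (-0.99 ± 0.17; adjusted p = 0.0122). When each pNCC library was left out the iCEC calls of Mdm4 (0.64 to 0.86), Chek2 (0.79 to 0.83) and Usp10 (0.57 to 0.62) were lost, as was that of Mdm4 without iCEC 1 (0.61), and Trp73 was 6.66 without iCEC 3. The difference of Trp53 between iCEC and pCEC was lost without iCEC 1 or any pCEC library (0.57 to 0.70), and that of Usp10 without pCEC 2 or 3 (-0.997 to -0.894).

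Of 28 further genes known as p53 targets, 11 were called higher in iCEC than in pNCC and 1 lower, with a median log2 fold change of 0.70. In pCEC 6 were higher and 12 lower than in pNCC, with a median of -0.02. These 18 of 28 stand beside 10382 called of all 16608 genes tested between pCEC and pNCC. Of the 27 tested between iCEC and pCEC, 12 were higher in iCEC and 1 (Cd82) lower, with a median of 1.00. Pmaip1, which encodes the BH3-only protein NOXA, stood at 18.7, 24.4 and 17.2 CPM in pNCC, 251, 197 and 153 CPM in iCEC, and 0.539, 0.305 and 0.876 CPM in pCEC. All induced libraries, iCEC 2 included, were above and all pCEC libraries below the pNCC range, with log2 fold changes over pNCC of 3.34 ± 0.30 (adjusted p = 0.00118) and -5.02 ± 0.39 (adjusted p = 3.83e-05). Gdf15, a secreted stress cytokine, showed the same order, at 2.05, 2.40 and 1.66 CPM in pNCC, 25.4, 23.5 and 55.9 CPM in iCEC, and 0.120, 0.111 and 0.146 CPM in pCEC (12 counts in all). Its log2 fold changes over pNCC were 4.06 ± 0.37 (adjusted p = 0.00113) and -3.86 ± 0.42 (adjusted p = 0.000185). Ddit4, which encodes the mTORC1 inhibitor REDD1, was higher in iCEC by 1.13 ± 0.16 (adjusted p = 0.00469) and lower in pCEC (-2.93 ± 0.15; adjusted p = 5.75e-06).

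Perp and Sfn, genes of stratified epithelia as well as p53 targets, were higher than in pNCC in both other groups. Perp, which encodes a desmosome-associated membrane protein, stood at 5.97, 7.33 and 7.71 CPM in pNCC, 1756, 1800.1 and 4844 CPM in iCEC, and 3084, 3077 and 3367 CPM in pCEC. Sfn, which encodes 14-3-3 sigma, had log2 fold changes over pNCC of 5.21 ± 0.84 in iCEC (adjusted p = 0.0066) and 6.76 ± 0.29 in pCEC (adjusted p = 3.19e-06). Cd82, a tetraspanin, was higher in pCEC by 3.88 ± 0.16 (adjusted p = 3.07e-06) and higher in iCEC by 1.78 ± 0.52 (adjusted p = 0.0451). Against pNCC the rises of Perp, Sfn and Cd82 went with the surface epithelium sums given above, and the part of those cells was not tested. Perp was highest in iCEC 3, above all pCEC libraries, whereas the sums of all pCEC libraries were above those of iCEC. Ddb2 and Xpc, named after their values were seen, were also called higher than in pNCC in both groups. Ddb2 was higher by 1.91 ± 0.40 in iCEC (adjusted p = 0.0157) and 2.61 ± 0.25 in pCEC (adjusted p = 0.000112). For Xpc the values were 1.30 ± 0.26 (adjusted p = 0.0125) and 1.83 ± 0.19 (adjusted p = 0.000134). Phlda3, a repressor of AKT, was higher in iCEC than in pNCC (1.60 ± 0.19; adjusted p = 0.00253) and than in pCEC (1.24 ± 0.19; adjusted p = 0.00808). Zmat3, which encodes an RNA-binding protein, fell in pCEC by 2.41 ± 0.11 (adjusted p = 4.07e-06) and did not pass in iCEC (0.04 ± 0.41; adjusted p = 0.954). Eda2r, a receptor of the tumour necrosis factor family, stood at 39.9, 50.2 and 34.6 CPM in pNCC and at 0, 0.111 and 0 CPM in pCEC, a total of 4 counts, while iCEC had 62.5, 17.6 and 75.1 CPM. Ptprv, named after its values were seen as the 1 gene called lower in iCEC than in pNCC, had 0 counts in every iCEC library and a mean of 1.92 CPM in pNCC, at least 24.7-fold lower against a floor of 3 counts per library. The iCEC call of Cd82 was lost without each pNCC library or iCEC 1 (1.69 to 2.00) and was 0.98 without iCEC 2. Its lower level in iCEC than in pCEC was lost without iCEC 1 or any pCEC library (-2.19 to -1.90), and the iCEC over pCEC call of Phlda3 without pCEC 2 (1.16). The count of 12 called between iCEC and pNCC was 7 without pNCC 2, 8 without pNCC 1 or 3, and 15 without iCEC 2 or 3. All-gene calls in those fits were 2322, 2523, 2698, 4623 and 7684 (without pNCC 2, pNCC 1, pNCC 3, iCEC 2 and iCEC 3), beside 5093. For iCEC and pCEC the count of 13 was 6 without pCEC 2, 7 without pCEC 1 or 3, 9 without iCEC 1 and 19 without iCEC 3. All-gene calls were 1131 without pCEC 2, 1353 and 1138 without pCEC 1 and 3, 2456 without iCEC 1 and 4974 without iCEC 3, beside 3327. In these fits between iCEC and pCEC the count went the way of the all-gene calls. Between iCEC and pNCC the count rose to 15 without iCEC 2 while all-gene calls fell to 4623. It went the way of the all-gene calls in the other fits given.

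**Figure D4:**
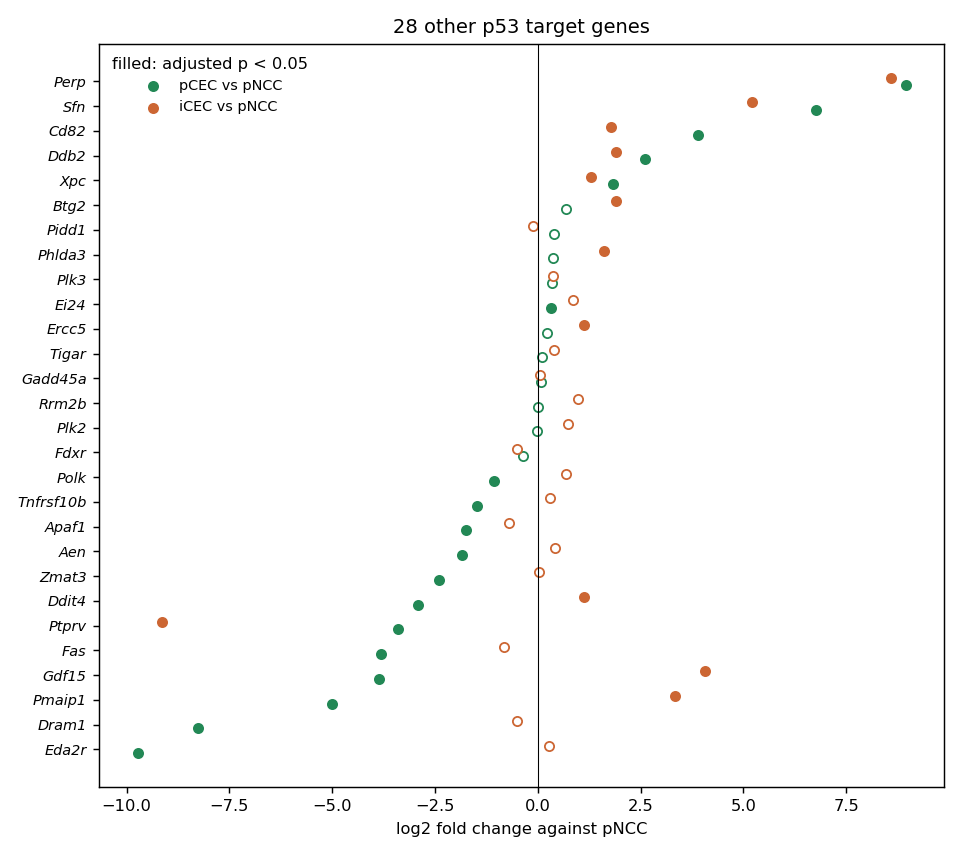
Log2 fold change against pNCC of 28 further p53 target genes, ordered by the pCEC value, for pCEC and iCEC (3 libraries per group; filled where edgeR's adjusted p was under 0.05). Perp, Sfn, Cd82, Ddb2 and Xpc lie to the right with filled symbols for both groups. Gdf15, Pmaip1 and Ddit4, filled for both, lie to the right for iCEC and to the left for pCEC. Values of genes with few or 0 counts in a group (Eda2r in pCEC, Ptprv in iCEC) depend on the prior count of the fit.

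The 4 other CDK inhibitors behaved unlike each other. Cdkn1c, the imprinted gene for p57, stood at 77.2, 31.6 and 16.5 CPM in pNCC, 1.63, 1.20 and 0.655 CPM in iCEC, and 3.05, 3.44 and 2.59 CPM in pCEC. It was lower than in pNCC in both groups, with log2 fold changes of -5.11 ± 0.75 (adjusted p = 0.005) and -3.64 ± 0.56 (adjusted p = 0.00119), and without pNCC 1, its highest library, -4.34 and -2.87. Cdkn1b, which encodes p27, was higher in pCEC than in pNCC by 1.51 ± 0.19 (adjusted p = 0.000396) and did not pass in iCEC (0.50 ± 0.32; adjusted p = 0.287). Cdkn2c, which encodes INK4C, stood at 30.2, 30.1 and 27.1 CPM in pNCC, 7.67, 15.7 and 2.14 CPM in iCEC and 29.0, 29.5 and 23.7 CPM in pCEC. All iCEC values were below all others, but the differences did not pass (-1.68 ± 0.72 against pNCC, adjusted p = 0.130; -1.75 ± 0.69 against pCEC, adjusted p = 0.128). Cdkn2d did not pass in any comparison, with log2 values of -0.14, 0.11 and -0.27. In the comparison of iCEC with pCEC 0 of these 4 passed edgeR's test, with 3 at an unadjusted p under 0.05. Of all 16278 genes tested, 3327 passed and 5690 had an unadjusted p under 0.05.

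Among 20 CDKs, cyclins, E2F factors and pocket proteins, 3 (Rb1, Ccnd1 and Cdk6) were higher and 5 (E2f1, Ccnd3, Ccne2, Cdk4 and E2f3) lower in iCEC than in pNCC, with a median log2 fold change of -0.74. In pCEC 6 were higher and 11 lower than in pNCC, with a median of -0.60. Cdk4, the kinase that INK4 proteins bind, stood at 353, 402 and 331 CPM in pNCC, 227, 158 and 263 CPM in iCEC, and 110, 126 and 112 CPM in pCEC. The 3 groups did not overlap, and Cdk4 was the 1 gene of the list called higher in iCEC than in pCEC (0.76 ± 0.21; adjusted p = 0.0474), while Rbl1 was the 1 called lower (-0.87 ± 0.19; adjusted p = 0.0252). E2f1, a driver of DNA synthesis genes, was lower than in pNCC by log2 values of -2.63 ± 0.52 in iCEC (adjusted p = 0.013) and -1.79 ± 0.22 in pCEC (adjusted p = 0.000345). Rb1, the retinoblastoma protein gene, was higher by 0.85 ± 0.18 (adjusted p = 0.0159) and 1.30 ± 0.12 (adjusted p = 9.46e-05). Of the D cyclins, which activate CDK4 and CDK6, Ccnd1 was higher in iCEC by 2.98 ± 0.75 (adjusted p = 0.0283) and in pCEC by 1.90 ± 0.15 (adjusted p = 4.27e-05), with iCEC 3 at 1984 CPM beside 391 and 242 CPM in iCEC 1 and 2. Ccnd3 was lower in both, by log2 values of -1.31 ± 0.29 (adjusted p = 0.0183) and -1.99 ± 0.17 (adjusted p = 5.39e-05). Ccnd1 in iCEC was 1.70 without iCEC 3 and E2f1 -3.29 without iCEC 2. The iCEC calls against pNCC of Cdk4 (-0.81 to -0.71), Ccnd1 (2.87 to 3.11), Ccnd3 (-1.36 to -1.30), Ccne2 (-1.53 to -1.30) and Rb1 (0.77 to 0.93) were lost without each pNCC library, that of Ccne2 also without iCEC 1, and that of E2f1 without pNCC 3 (-2.47). Against pCEC, Cdk4 was lost without iCEC 1 or any pCEC library (0.67 to 0.82) and Rbl1 in all fits that left out 1 library but the one without iCEC 3 (-0.99 to -0.75).

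Of 15 BCL-2 family genes outside the set, 13 were tested. Of these, 5 (Bcl2l1, Mcl1, Bik, Bcl2 and Bid) were higher in iCEC than in pNCC, and in pCEC 8 were higher and 2 (Bid and Bnip3) lower. The median log2 fold changes were 0.86 and 0.47. Bcl2l1, the gene for the survival protein BCL-XL, rose by 1.51 ± 0.17 in iCEC (adjusted p = 0.00214) and 1.31 ± 0.15 in pCEC (adjusted p = 0.000211). Mcl1, another survival gene, rose by 1.29 ± 0.17 (adjusted p = 0.00362) and 1.11 ± 0.14 (adjusted p = 0.000337), and Bcl2 by 1.89 ± 0.43 (adjusted p = 0.0209) and 2.64 ± 0.16 (adjusted p = 1.11e-05). Bik also rose in both, by 6.11 ± 1.26 (adjusted p = 0.0147) and 6.54 ± 0.70 (adjusted p = 0.000196), values that rest on 14 counts in pNCC. Bok rose in pCEC by 2.80 ± 0.28 (adjusted p = 0.000141) and did not pass in iCEC (0.08 ± 0.41; adjusted p = 0.902). The 3 that differed between iCEC and pCEC were Bok, lower in iCEC (-2.73 ± 0.28; adjusted p = 0.00299), and Bid and Bnip3, higher in iCEC by 1.95 ± 0.33 (adjusted p = 0.0113) and 4.85 ± 0.88 (adjusted p = 0.0135). Bcl2 in iCEC was 14.0, 16.2 and 44.7 CPM, and its log2 fold change over pNCC was 1.30 without iCEC 3 and lost its call without each pNCC library (1.76 to 1.98), as did that of Bid (1.17 to 1.19). Bik over pNCC in iCEC lost its call without pNCC 1 (6.02) and was 7.23 without pNCC 2 and 5.23 without iCEC 2. Bnip3 in pCEC was 1.02, 1.55 and 6.57 CPM, and its iCEC over pCEC value was 6.15 without pCEC 3 and lost its call without pCEC 2 (4.51), while its pCEC over pNCC value was -5.30 without pCEC 3. The Bid call between iCEC and pCEC was lost without each pCEC library (1.86 to 2.06), and Bik over pNCC in pCEC was 7.66 without pNCC 2.

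Of 18 genes of Polycomb complexes and T-box factors known to repress the Cdkn2a locus, 5 were higher in iCEC than in pNCC, among them Ezh1, Cbx7 and Cbx6. In pCEC 10 were higher and 6 lower than in pNCC. The median log2 fold changes were 0.32 and 0.51. Cbx7, a Polycomb subunit, stood at 3.54, 1.94 and 1.03 CPM in pNCC, 29.0, 43.3 and 44.6 CPM in iCEC, and 47.2, 46.8 and 33.9 CPM in pCEC. It was higher than in pNCC by 4.18 ± 0.51 in iCEC (adjusted p = 0.00278) and 4.43 ± 0.42 in pCEC (adjusted p = 0.000114). Ezh1, a histone methyltransferase, was higher by 1.67 ± 0.17 (adjusted p = 0.00178) and 1.56 ± 0.14 (adjusted p = 6.73e-05). Tbx3, a T-box repressor, had 17.8, 20.6 and 33.3 CPM in pNCC and 18.4, 28.8 and 42.4 CPM in iCEC, and 0 counts in all pCEC libraries, at least 254-fold lower than in pNCC and 317-fold lower than in iCEC against a floor of 3 counts per library. Among the genes that differed between iCEC and pCEC, Cbx6 (2.70 ± 0.20; adjusted p = 0.00153) and Tbx3 were higher in iCEC and Phc1 (-0.94 ± 0.20; adjusted p = 0.0228) was lower. The Phc1 call was lost without each pCEC library (-0.998 to -0.915), and that of Cbx6 over pNCC in iCEC without pNCC 2 or 3 (1.03 to 1.10).

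Of 16 genes around the sestrins, which link amino acid stress to mTORC1, 1 was called between iCEC and pNCC, Sec13, lower by a log2 value of -0.96 ± 0.15 (adjusted p = 0.00614). In pCEC 3 were higher than in pNCC (Castor1, Nprl2 and Wdr24) and 9 lower. The median log2 fold changes were -0.17 and -0.49. Among the lower genes were targets of the stress factor ATF4. Ddit3, which encodes CHOP, stood at 84.2, 55.6 and 40.1 CPM in pNCC and 6.85, 5.24 and 5.51 CPM in pCEC (-3.22 ± 0.28; adjusted p = 6.28e-05). Trib3 was lower by a log2 value of -4.75 ± 0.51 (adjusted p = 0.000221), and Asns, asparagine synthetase, by -3.71 ± 0.47 (adjusted p = 0.000451). Asns and Ddit3 were the 2 genes that differed between iCEC and pCEC, both higher in iCEC, by 3.13 ± 0.75 (adjusted p = 0.0319) and 1.90 ± 0.50 (adjusted p = 0.0412). In iCEC Asns stood at 85.8, 56.3 and 288 CPM and Ddit3 at 10.0, 19.7 and 43.1 CPM, highest in iCEC 3. Asns over pCEC was 2.27 without iCEC 3 and lost its call without iCEC 1 or any pCEC library (2.82 to 3.85), and Ddit3 lost its call without iCEC 2 or any pCEC library (1.83 to 1.99). Asns in pCEC over pNCC was -4.39 without pCEC 3. Sesn2 was lower in pCEC than in pNCC and higher in iCEC than in pCEC, as Asns and Ddit3 were, and Sesn1 was not. Within iCEC, Sesn2 was highest in iCEC 1 (141, 83.2 and 84.0 CPM), unlike Asns and Ddit3.

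Over the 9 libraries and 14109 genes ranked, the patterns closest to that of Cdkn1a by Pearson's r of log2 CPM were those of Cdc34 (0.985), Cpped1 (0.980) and Mpv17l2 (0.971). Closest to Cdkn2a were Ccnd2 (0.985), Exoc4 (0.976) and Zfp874a (0.970). Ccnd2, the gene for cyclin D2, stood at 422, 379 and 467 CPM in pNCC, 706, 116 and 674 CPM in iCEC, and 107, 113 and 86.3 CPM in pCEC. It thus had iCEC 2 near the pCEC libraries as Cdkn2a did, over a smaller range. These are descriptions over 9 libraries that share 3 groups.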

How the data were processed

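Reads of 150 bases, paired, came from 9 libraries in 3 groups of 3. The authors deposited 1 table of raw counts, with a row per gene symbol and a column per library. Per the submitters' processing notes the build was mm10 and edgeR was among the tools. Its role and version, the aligner, counter, annotation and strand setting are not given in the sources used here.

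Each comparison was fitted on its own 6 libraries with edgeR 4.0.16 in R 4.3.3 (filterByExpr, TMM, robust quasi-likelihood fit, 2-sided test, Benjamini-Hochberg over all genes tested, threshold 0.05). The SE of a log2 fold change is its size over the root of F. CPM is the count scaled to the library total alone, so that folds, which are TMM-scaled, differ somewhat from ratios of CPM. Lengths per kilobase, gene IDs and coordinates are GENCODE M21 (mm10). Promoters are RefSeq (GRCm38.p6). The fit was tested on simulated data. Counting error is small at these depths except where counts are stated, and floors cover counting error only.

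The 10 genes and all other lists were chosen with earlier results of these data known. Beyond the 10 genes, named genes were Trp53, Trp63, Trp73, Mdm4, 4 CDK inhibitors, up to 4 called genes per list and comparison with the smallest adjusted p, of which those described are a part, and the 3 genes most correlated with Cdkn1a and Cdkn2a at a mean of at least 1 CPM. Names in counts of 5 or fewer were added after the values were seen. One gene that the rule names is not reported here. Alternatives were DESeq2 1.42.0 size factors and Wald test, other filters, all 9 libraries in one fit, the replicate number as a block, 1 library left out in turn, and the 1 pCEC library labelled polyA RNA alone. Those on the 28 further p53 targets and on other named genes were chosen after seeing the data. Python 3.11.15, numpy 2.4.6, pandas 2.3.3 and matplotlib 3.10.9 made the tables and plots.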

Additional observations from a re-analysis of the deposited data

How the results depend on the processing

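Between iCEC and pNCC, where 1 of the 10 genes was called, the DESeq2 Wald test called 2, all 9 libraries in one fit called 3, and leaving out 1 library gave 0 (each pNCC library) to 6 (iCEC 2), where calls over all genes were 5093 in all and 2322 to 2698 without a pNCC library. Between iCEC and pCEC, where 8 were called, leaving out 1 library gave 4 (each pCEC library) to 9 (iCEC 2), with 5 without iCEC 1. Calls over all genes were 3327, 1131 to 1353 without a pCEC library and 2456 without iCEC 1, so that fewer were called throughout. With the 1 pCEC library labelled polyA RNA, whose spread is then taken to equal that of the others, edgeR called 0 of the 10 and 0 of all genes, with 7 and 2529 at an unadjusted p under 0.05. Fewer libraries entered the fits that left some out. The cause of the changes with the DESeq2 test and the joint fit was not tested. Between pCEC and pNCC the count was 7 to 10 under the alternatives that kept at least 2 pCEC libraries, beside 9. Calls over all genes in these ran from 8306 of 17616 (all 9 libraries in one fit) to 11322 of 29586 (DESeq2 Wald test), beside 10382 of 16608. Of the 28 further p53 targets, 7 to 15 were called between iCEC and pNCC and 6 to 19 between iCEC and pCEC when 1 library was left out, and 0 with the polyA pCEC library alone (11 at an unadjusted p under 0.05).

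Directions turned for 4 log2 fold changes that had not been called. With 1 library left out, Ccng1 ran from -0.10 (without iCEC 1) to 0.67, Sesn2 from -0.14 (without iCEC 1) to 0.35 and Bax from -0.33 to 0.058 (without iCEC 2) for iCEC over pNCC, and Cdkn2b from -0.15 (without iCEC 1) to 1.47 for iCEC over pCEC. The cause was not tested. For the 10 genes under all alternatives, 104 of 120 values against pNCC kept direction and side of the threshold in iCEC, 115 of 130 in pCEC, and 99 of 129 between iCEC and pCEC. Calls were lost in 4, 14 and 28 and gained in 9, 1 and 1. Sesn1's rise in iCEC was lost under the block (1.05, adjusted p = 0.0679).

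Replicate numbers are shared by the groups but did not pair the libraries: same-numbered deviations correlated at -0.069 to -0.014 for iCEC and pNCC, 0.0030 to 0.0714 for pCEC and pNCC and -0.181 to 0.0014 for iCEC and pCEC, and 0, 3 and 0 of 6 libraries correlated best with their own number. With the replicate number as a block edgeR called 0, 9 and 4 of the 10 genes (2, 10 and 7 at an unadjusted p under 0.05) beside 2864, 9777 and 1295 of all genes, and 7 of the 28 further targets between iCEC and pNCC. The limit of 3 counts per library is 0.0625 to 0.110 CPM, and Cdkn2a, Eda2r and Gdf15 in pCEC and Trp73 and Bik in pNCC lie near it.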
